A study of Mus musculus with 6 samples.

Results

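The nuclear genes of oxidative phosphorylation (OXPHOS) encode most of the proteins of the mitochondrial respiratory chain. They were chosen here by gene name: all rows of the count table named Nduf, Sdha to Sdhd, Uqcr, Uqcc, Cox4 to Cox8 or Atp5, with at least 10 counts summed over the 6 libraries. Of the 32285 rows, 97 carried such a name and 95 reached the minimum. They comprised 39 genes of complex I, 8 assembly factors of complex I, 4 genes of complex II, 8 of complex III, 3 assembly factors of complex III, 16 of complex IV and 17 of complex V. Genes were placed in complexes by name alone. Ndufa4 and Ndufa4l2 were thus counted with complex I for their names, whichever complex their proteins belong to. Just inside the minimum stood Cox4i2 with 77 counts and Ndufa4l2 with 95. Just outside stood Cox6a2 with 8 counts and Cox8b with 0 counts in all 6 libraries, which encode the heart and muscle forms of complex IV subunits 6a and 8. With 0 counts, a library allows a level of up to 0.124 to 0.158 CPM (counts per 1000000 reads counted) for Cox8b.

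The cells were germline stem (GS) cells, a culture of mouse spermatogonia that contains stem cells and grows with GDNF and FGF2 on a layer of mouse embryonic fibroblasts. They were derived from testes of DBA/2 mice aged 2 to 3 days. Both groups carried the EGFP transgene Tg14(act-EGFP-OsbY01), made in C57BL6 mice and bred into DBA/2. Frozen cells spent 6 months either on the International Space Station (Space GS cells, n = 3 libraries) or in a freezer on Earth (Ground GS cells, n = 3 libraries), and their RNA was taken the day after thawing, before any passage. In all 6 libraries the treatment label named the opposite group from the title. The groups here follow the titles, as do the columns of the table and the names of the study. Were the treatment label the correct one, each direction given here would be turned around. The labels do not tie libraries to particular lines or cultures, so each p below measures only the spread between these libraries.

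Total counts ran from 19015985 to 24110916 per library. Mitochondrially encoded RNA took 3.09%, 11.5% and 5.69% of the counts in Ground libraries 1 to 3 and 2.51%, 7.12% and 2.81% in Space libraries 1 to 3. Summed CPM of 16 germ cell markers was 3768 to 3836 in the 6 libraries, and all 16 were detected. The 16 markers of feeder fibroblasts summed to 999 to 1049 CPM in the Ground libraries and 840 to 1058 CPM in the Space libraries, lowest in Space-1. Of the 9 Sertoli and Leydig cell markers, 5 passed the filter on low counts and summed to 29.2 to 32.1 CPM, and Hsd3b1 was at 0. Of the 8 markers of macrophages and endothelium, 6 passed it and summed to 26.2 to 44.5 CPM, led by Cd68 at 14.0 to 22.0 CPM. The defining macrophage markers Adgre1 and Csf1r held 1 and 4 counts in all. In bulk RNA of this kind, fewer cells of a type and less RNA per cell cannot be told apart.

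The respiratory chain passes electrons from NADH through complex I, or from succinate through complex II, to ubiquinone, then through complex III and cytochrome c to complex IV, where oxygen is reduced. Complexes I, III and IV pump protons, and complex V uses the gradient to make ATP. Complex II is encoded wholly in the nucleus, whereas the other complexes also need subunits made from mitochondrial DNA. The nuclear factors NRF1, YY1 and GABP, an ETS family factor, are known to bind in the promoters of many of these nuclear genes.

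Promoter sequences are given as a description of these genes. Whether the motifs bear on the levels across libraries was not tested. RefSeq promoters (GRCm38.p6, 250 bases before to 50 after a transcription start) were matched for 79 of the 95 genes, 2 of them through an older symbol, and gave 84 windows. The letters CGCATGCG of the NRF1 motif stood in 11 of these 84 windows (13.1%), against 1.87% of all 32851 windows. The ETS letters CCGGAAG stood in 19 (22.6%, against 8.86%) and the YY1 letters AAGATGGCG in 8 (9.5%, against 1.4%). At least 1 of these motifs was in 31 of the 84 (36.9%, against 11.5%), counting both strands. The Sp1 letters GGGCGG were in 39 windows (46.4%, against 35.7%) and the CRE letters TGACGTCA in 4 (4.8%, against 1.79%). In 7 of the 8 windows with the YY1 letters these lay after the start. The same was true of 52.7% of all windows with them. By complex, at least 1 of the NRF1, ETS and YY1 motifs stood in 11 of 36 windows of complex I, 4 of 7 of its assembly factors, 2 of 3 of complex II, 3 of 5 of complex III, 0 of 3 of its assembly factors, 3 of 12 of complex IV and 8 of 18 of complex V. The windows of all genes include genes that did not pass the filter on low counts, and no count was made over expressed genes only. The higher shares are thus not shown to be particular to these genes. No motif searched is part of another, and a match describes the letters in the window and is not a measured binding site.

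The 250 bases before the start are printed for 1 gene of each complex or assembly group that had a whole motif there and at most 30 bases in exons of itself or of another coding gene. The gene with most kinds of motif was taken, then the one with the highest level per length. Capitals mark NRF1, ETS and YY1 letters on either strand, and the sequences run 5′ to 3′ on the strand of the gene. Ndufb6, an accessory subunit of complex I, lies at chr4:40279422-40279671 (minus strand). Ndufaf1, an assembly factor of complex I, lies at chr2:119662835-119663084 (minus strand). Uqcr11, a small subunit of complex III, lies at chr10:80406822-80407071 (minus strand), and its last capitals begin an NRF1 motif that runs across the start. Cox6a1, a subunit of complex IV, lies at chr5:115348959-115349208 (minus strand), and Atp5l, subunit g of ATP synthase, at chr9:44920743-44920992 (minus strand).
Ndufb6: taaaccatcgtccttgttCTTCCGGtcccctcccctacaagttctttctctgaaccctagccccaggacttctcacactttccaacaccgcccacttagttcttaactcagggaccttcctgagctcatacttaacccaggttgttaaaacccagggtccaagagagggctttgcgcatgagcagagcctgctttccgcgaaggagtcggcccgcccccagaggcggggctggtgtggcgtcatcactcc
Ndufaf1: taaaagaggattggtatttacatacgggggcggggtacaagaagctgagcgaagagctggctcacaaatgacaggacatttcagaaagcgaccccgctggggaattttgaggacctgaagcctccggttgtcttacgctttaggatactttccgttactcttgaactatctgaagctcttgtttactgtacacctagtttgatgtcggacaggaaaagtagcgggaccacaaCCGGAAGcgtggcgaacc
Uqcr11: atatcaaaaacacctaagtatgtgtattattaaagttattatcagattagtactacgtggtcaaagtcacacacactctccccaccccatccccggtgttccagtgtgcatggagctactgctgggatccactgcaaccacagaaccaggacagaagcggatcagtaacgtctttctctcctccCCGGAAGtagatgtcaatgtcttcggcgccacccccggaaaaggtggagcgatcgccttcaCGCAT
Cox6a1: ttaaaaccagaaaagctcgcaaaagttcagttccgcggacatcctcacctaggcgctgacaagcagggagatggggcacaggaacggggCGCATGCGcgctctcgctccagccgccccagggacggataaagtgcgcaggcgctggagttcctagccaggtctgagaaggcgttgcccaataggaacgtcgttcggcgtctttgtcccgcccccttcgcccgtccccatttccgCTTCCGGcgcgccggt
Atp5l: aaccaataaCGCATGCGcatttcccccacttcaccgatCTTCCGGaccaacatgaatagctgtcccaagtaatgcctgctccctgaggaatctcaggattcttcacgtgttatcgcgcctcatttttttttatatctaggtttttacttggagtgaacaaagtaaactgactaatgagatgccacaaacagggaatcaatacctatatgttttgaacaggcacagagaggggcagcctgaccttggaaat

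Levels across the 95 genes covered a 449-fold range per length of exon, with a median of 43.4 CPM per kb. The length was the union of all exons of a gene. By this length complex IV held the highest level, Cox6a1 with 295 CPM per kb, followed by Cox4i1, the usual form of subunit 4, with 263 CPM per kb. In complex V, Atp5b and Atp5a1, the catalytic beta and the alpha subunit of ATP synthase, led with 262 and 201 CPM per kb. In complex I the order was led by Ndufb9, an accessory subunit, with 164 CPM per kb and Ndufv1, the NADH binding core subunit, with 94.9 CPM per kb. In complex III it was led by Uqcr11 with 152 and by Uqcrh, the hinge protein, with 123 CPM per kb. In complex II, Sdha, the flavoprotein, was highest at 78.7 CPM per kb, ahead of Sdhd at 63.5, Sdhb at 43.4 and Sdhc at 33.5 CPM per kb. By this union length its neighbours did not overlap over the 6 libraries.

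Assembly factors of complex I stood below its subunits, with a median of 7.29 CPM per kb against 37.4 CPM per kb. Ndufaf8 was their highest at 20.0 and Ndufaf3 their lowest at 2.68 CPM per kb. Of the assembly factors of complex III, Uqcc2, needed for synthesis of cytochrome b, reached 93.2 CPM per kb, against 12.9 for Uqcc3 and 3.16 for Uqcc1. The lowest levels of all were those of Ndufa4l2 (0.657 CPM per kb) and Cox4i2 (0.740 CPM per kb), paralogues known from cells at low oxygen. Neighbours in these orders often overlapped over the libraries, in 31 of 38 neighbouring pairs of complex I, 10 of 16 of complex V and 7 of 15 of complex IV, so that much of the order was not resolved. Retained introns lengthen some unions. With the length of the principal coding transcript the highest level of all was that of Atp5b in complex V, 579.9 CPM per kb, ahead of Cox4i1 with 532 CPM per kb. The medians of complex I and its assembly factors became 56.4 and 16.6 CPM per kb. By this length Ndufa7, Cox4i1, Uqcrh and Ndufaf2 led complex I, complex IV, complex III and the assembly factors of complex I, and Atp5l, the lowest of complex V by the union, was no longer so. In complex II, Sdhb (85.1 CPM per kb) then stood above Sdhd (63.5 CPM per kb), so the order of these genes depended on the length used. Spearman's rho between the orders under these lengths was 0.882 across the 95 genes, which share libraries and counts. Of the 95 genes, 15 had an annotated pseudogene that was near identical (at least 98% over 76 bases or more), with 9 such pseudogenes for Atp5l, and 29 overlapped exons of a gene on the opposite strand. Levels of those genes are less certain, because the handling of shared reads and the strand setting of the counting were not given in the sources used here.

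**Figure D1:**
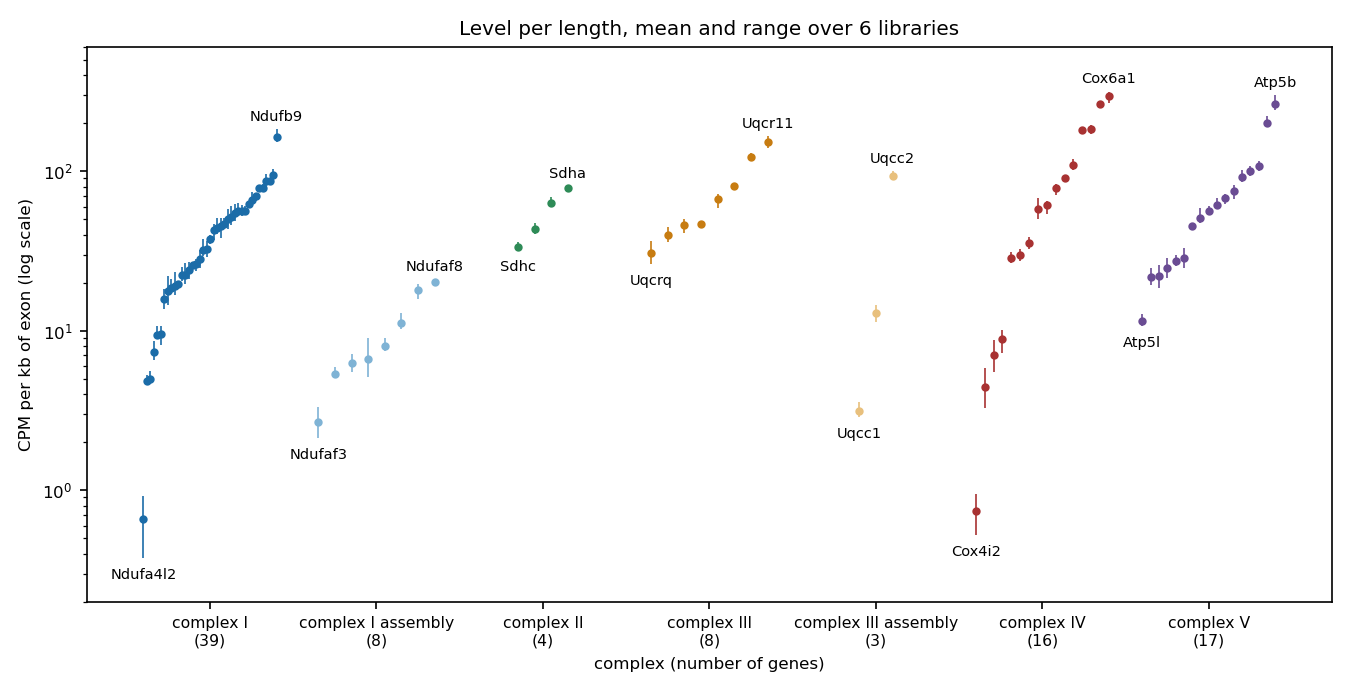
Level of each of the 95 genes in CPM per kb of exon (log scale, points are means and bars the range over 6 libraries), grouped by complex with the highest and lowest gene named. Levels run from 0.657 for Ndufa4l2 to 295 for Cox6a1, and the assembly factors of complex I lie below most of its subunits.

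The paralogue sets gave the RNA share of each form of a subunit in these cultures, in which feeder markers were also detected. The part of feeder RNA in these shares was not tested. Cox7b2, a paralogue of Cox7b known mainly from testis (chr5:71442824-71548205, minus strand), stood at 19.7, 18.8 and 21.04 CPM in Ground libraries 1 to 3 and at 18.9, 17.6 and 18.6 CPM in Space libraries 1 to 3. Cox7b, the broadly used form (chrX:106015700-106022450, plus strand), stood at 33.3, 36.0 and 37.6 CPM and at 35.2, 34.6 and 32.3 CPM. Per length, Cox7b2 made up 53.3% to 56.99% of the pair in the 6 libraries, and 48.4% to 52.2% by the principal transcripts, so both forms were at similar levels.

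Cox6b2 and Cox8c, other forms known mainly from testis, were minor in their pairs. Cox6b2 made up 1.82% to 3.10% of the Cox6b pair per length and Cox8c 3.74% to 5.39% of the Cox8 pair. Cyct, the testis form of cytochrome c, was not among the genes selected by name. By union length Cyct stood at 38.1 CPM per kb, against 17.2 CPM per kb for the somatic form Cycs, and so was the higher of this pair by that length. No other length is given for this pair, and its pseudogene copies were not searched. Of the heart and muscle form Cox7a1, 4.81% to 6.83% of the Cox7a1 and Cox7a2 pair was found. Cox4i2 made up 0.204% to 0.347% of its pair and Ndufa4l2 0.682% to 1.87% of its pair. Atp5g1, Atp5g2 and Atp5g3 encode the same mature c subunit of ATP synthase, and Atp5g3 held the greatest share per length (50.2% to 55.0%), followed by Atp5g2 (24.8% to 28.3%) and Atp5g1 (19.3% to 22.1%). The order of the 3 was the same by the principal transcripts, with Atp5g1 at 8.197% to 9.69%.

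No share passed a test between the groups. The Cox4i2 share was 0.318% ± 0.026 (SD, n = 3) in Ground and 0.241% ± 0.040 (SD, n = 3) in Space GS cells, without overlap, and the 2-sided exact permutation p was 0.1, the smallest that 3 against 3 libraries allow. Over the 11 exact tests of shares and sums, its Benjamini-Hochberg adjusted p was 0.962. For the other 8 shares the exact p was 0.2 to 1.

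**Figure D2:**
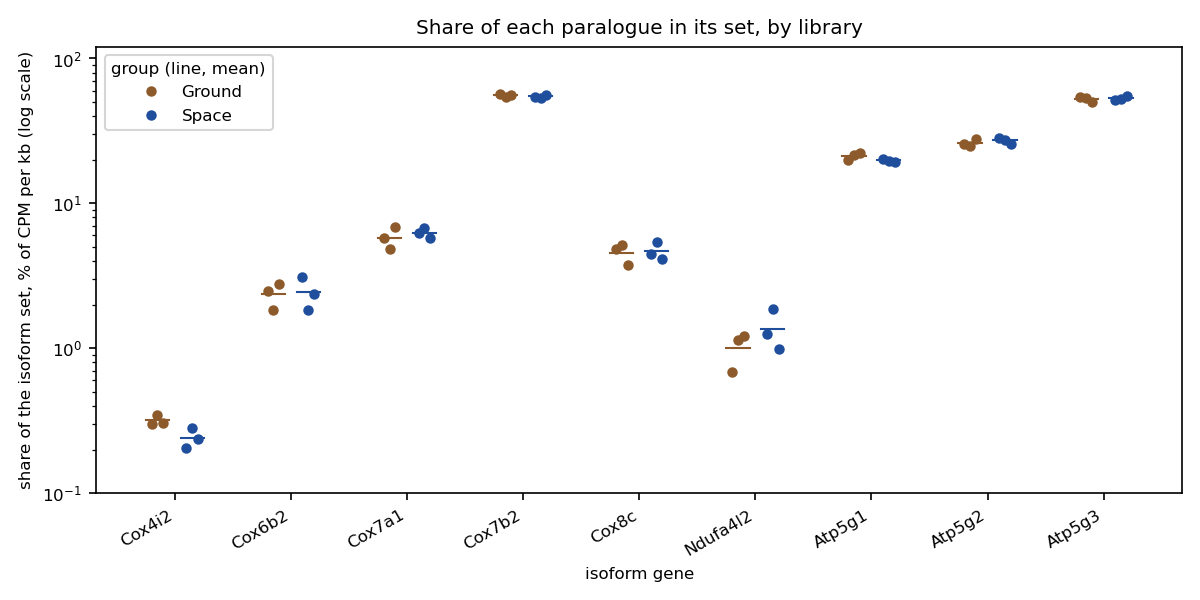
Share of each paralogue in its set per length of exon (percent, log scale), with 1 point per library and a line at the group mean for Ground (brown) and Space (blue) libraries. Cox7b2 lies at 53.3% to 56.99% of the Cox7b pair, while the points of Cox4i2 lie under 1%, and only for Cox4i2 do the groups not overlap.

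The main comparison asked whether 6 months of storage in space went with other levels of these genes. No gene passed the test. By edgeR's quasi-likelihood test with Benjamini-Hochberg adjustment over all 15104 genes tested, 0 of the 95 had an adjusted p under 0.05, against 0 of all genes (0%). At an unadjusted p under 0.05, 0 of the 95 passed, against 92 of 15104 (0.609%). DESeq2 and limma-voom also called 0 of the 95, adjusted or unadjusted. All 95 genes passed the filter on low counts. The estimates were near 0: the median log2 fold change (Space over Ground) was -0.03 with a median SE of 0.09, beside -0.002 and 0.13 over all tested genes. In 80 of the 95 genes the change was smaller than its SE, and in 93 it was under 0.15 on the log2 scale.

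The 95% intervals give the range of change that remained compatible with these libraries. All 95 intervals held 0. In 90 genes the interval lay within 1.5-fold in either direction, and in 93 within 2-fold. The exceptions to the latter were Cox4i2 and Ndufa4l2, the least expressed.

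Of the 95 genes, 65 (68.4%) had a lower estimate in Space GS cells, against 51.3% of all genes. This split rested on single libraries: without Ground-3 it was 32 of 95, and without Space-1 it was 86 of 95. With scaling by total counts it was 45 of 95, against 33.3% of all genes. The medians by complex were -0.05 for complex I, -0.03 for its assembly factors, 0.0058 for complex II, -0.02 for complex III, -0.02 for its assembly factors, -0.04 for complex IV and -0.0075 for complex V.

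Of the 16 markers of feeder fibroblasts, 15 had lower estimates in Space GS cells, with a median log2 fold change of -0.28. None of the 16 passed the adjusted threshold in edgeR. Those that passed the unadjusted one were the collagen genes Col1a2 (unadjusted p = 0.0357, adjusted p = 0.9999 by edgeR) and Col3a1 (unadjusted p = 0.0453, adjusted p = 0.9999 by edgeR). Without Space-1, 13 of 16 were lower and the median was -0.06. The part of feeder RNA in the OXPHOS estimates was not tested.

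**Figure D3:**
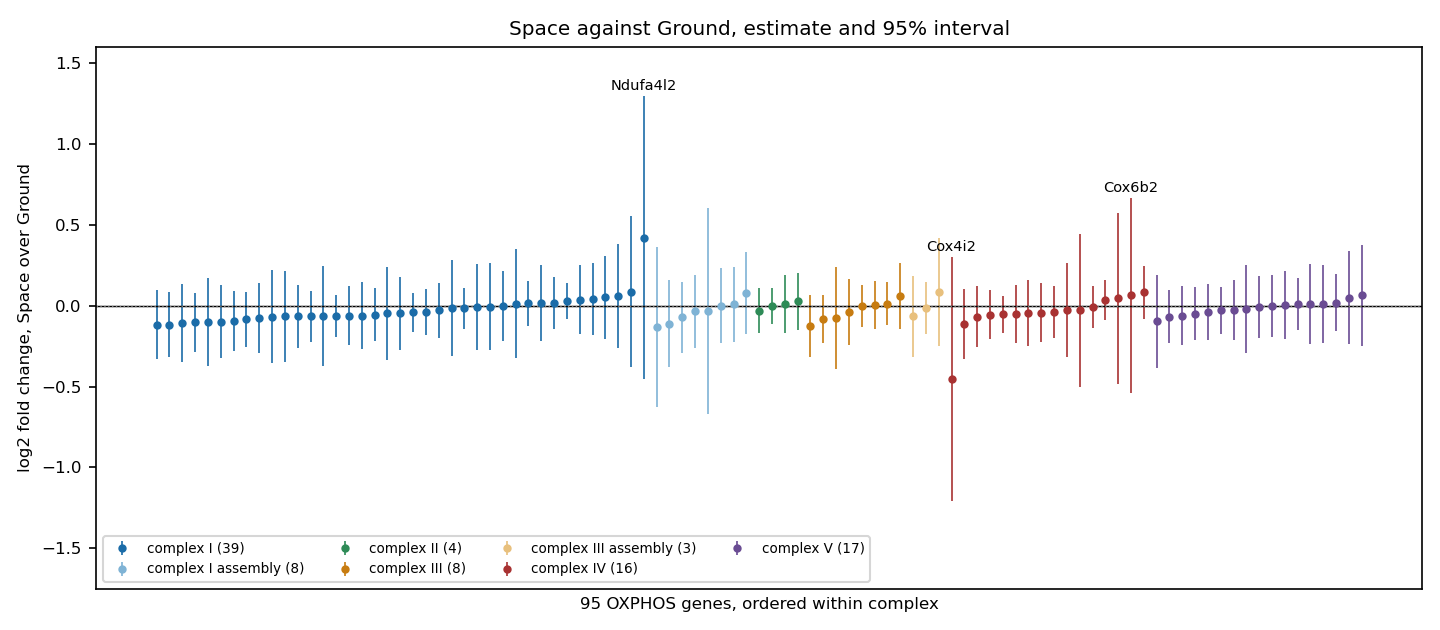
Log2 fold change of each gene, Space over Ground (points, edgeR estimates, bars, 95% intervals), coloured by complex and ordered within it, with a solid line at 0 and a dotted line at the median of all 15104 tested genes. All 95 intervals cross 0, and the widest belong to the low genes Ndufa4l2 and Cox4i2.

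The 20 genes listed as core subunits had a median coefficient of variation of 6.29% over the 6 libraries, against 7.24% for all 95 genes. Core is here the name of the list, which also holds the nuclear complex IV genes Cox4i1, Cox5a and Cox5b. Ndufs1, the largest iron-sulfur subunit of complex I, stood at 155, 159 and 157 CPM in Ground libraries 1 to 3 and at 161, 158 and 161 CPM in Space libraries 1 to 3. Its log2 fold change was 0.03 ± 0.05 (SE). Sdha stood at 320, 330 and 325 CPM and at 325, 322 and 327 CPM, a highest to lowest ratio of 1.03. Ndufv1 showed 235, 273 and 259 CPM in Ground and 248, 249 and 235 CPM in Space libraries, with a log2 fold change of -0.07 ± 0.07 (SE). Cox4i1 showed 402, 421 and 422 CPM and 396, 406 and 398 CPM, with a log2 fold change of -0.05 ± 0.05 (SE). The groups overlapped for each of these genes. Of the 20 core subunits, 14 had lower and 6 higher estimates in Space, from -0.10 for Ndufs7, a subunit with an iron-sulfur centre, to 0.06 for Uqcrc2, a core protein of complex III, and 0 had an unadjusted p under 0.05 by edgeR.

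In ATP synthase, Atp5b, the most highly counted of the 95 genes (149506 counts, chr10:128083273-128090391, plus strand), stood at 1054, 1024 and 1243 CPM in Ground libraries 1 to 3 and at 1265, 1028 and 1052 CPM in Space libraries 1 to 3. Ground-3 and Space-1 were high and the other 4 libraries lay close together, so that the spread within each group exceeded the difference between them. The means were 1107 ± 119 CPM (SD, n = 3) and 1115 ± 131 CPM (SD, n = 3), and the log2 fold change was 0.01 ± 0.11 (SE). Its partner Atp5a1 was likewise highest in Space-1 and Ground-3, with 598, 609 and 685 CPM and 691, 597 and 598 CPM. The third subunit of the catalytic head, the gamma subunit Atp5c1, stood at 163, 173 and 194 CPM and at 185, 171 and 163 CPM, again with Ground-3 and Space-1 as the highest libraries.

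The smallest unadjusted p of the 95 was 0.161, for Uqcr10, a small subunit of complex III (chr11:4701973-4704342, minus strand). Its values were 38.1, 42.1 and 41.9 CPM in Ground and 39.1, 34.5 and 38.0 CPM in Space libraries, with a log2 fold change of -0.13 ± 0.08 (SE) and an adjusted p of 0.9999 by edgeR. The next genes with lower estimates in the edgeR test were Cox4i2 (unadjusted p = 0.202, adjusted p = 0.9999) and Ndufb8, an accessory subunit of complex I (unadjusted p = 0.219, adjusted p = 0.9999, log2 fold change -0.12 ± 0.09 SE). Among genes with higher estimates the smallest p were 0.275 for Cox7c, a small subunit of complex IV (log2 fold change 0.08 ± 0.07 SE), 0.299 for Ndufa4l2 and 0.505 for Ndufaf5, an assembly factor of complex I (log2 fold change 0.08 ± 0.11 SE), all by edgeR.

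Few genes kept the libraries of the groups apart. In 2 of the 95 genes all 3 Space libraries lay below all 3 Ground libraries, and in 0 genes above them. Over all tested genes, 3.59% did not overlap. Both genes were named after their values were seen. Ndufa10, an accessory subunit of complex I (chr1:92439010-92473860, minus strand), had 85.5, 86.7 and 89.8 CPM in Ground and 84.3, 85.2 and 85.1 CPM in Space libraries, a gap that was small beside its SE (log2 fold change -0.04 ± 0.05). Cox4i2 (chr2:152754173-152765037, plus strand) had 0.618, 0.745 and 0.658 CPM in Ground and 0.412, 0.586 and 0.480 CPM in Space libraries. Its log2 fold change of -0.45 was the lowest of the 95 and its interval ran from -1.21 to 0.30. At the other end, Ndufa4l2 (chr10:127514967-127517154, plus strand) had 0.412, 0.639 and 0.789 CPM in Ground and 0.865, 1.01 and 0.5999 CPM in Space libraries, overlapping, with a log2 fold change of 0.42 and an interval from -0.46 to 1.30. Both estimates rest on 77 and 95 counts in all.

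Variation between libraries was small. The median coefficient of variation of 7.24% compares with 10.6% for all tested genes, and the highest library exceeded the lowest by less than 1.5-fold in 88 of the 95 genes. The sets were not matched for level, and counting error is larger at low counts, so the lower value is not shown to be particular to these genes. The largest ratios were those of low genes: Ndufa4l2 (2.46), Cox4i2 (1.81) and Cox6b2 (1.77). Cox6b2 stood at 4.90, 3.62 and 5.92 CPM in Ground and at 6.42, 3.78 and 4.88 CPM in Space libraries, lowest in the libraries numbered 2.

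Most of the 95 genes were highest in Ground-3 and Space-1, 1 library of each group. These libraries were singled out after their values were seen, so the counts are a description with no test, and genes of 1 library are not independent. The mean deviation from the mean of each gene was 0.12 in Ground-3 and 0.08 in Space-1 on the log2 CPM scale, against -0.06 and -0.02 in Ground-1 and Ground-2 and -0.04 and -0.07 in Space-2 and Space-3. Over all tested genes the mean deviation was of the other sign, -0.03 in Ground-3 and -0.06 in Space-1. Ground-3 and Space-1 were the 2 highest libraries in 60 of the 95 genes (63.2%), against 23.5% of all tested genes. In 75 genes both exceeded the mean of the gene, against 37.0% of all tested genes. Ground-3 was the highest library of 55 genes and Space-1 of 23.

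By complex, the pattern was found in 14 of 17 genes of complex V, 6 of 8 of complex III, 28 of 39 of complex I, 2 of 4 of complex II and 7 of 16 of complex IV. It was found in 2 of 8 assembly factors of complex I and 1 of 3 of complex III. In complex IV the mean deviation was 0.11 in Ground-3 but 0.03 in Space-1, and 15 and 11 of its 16 genes were above their mean there. The Space-1 value includes Cox4i2, a gene of 77 counts that was lowest in Space-1 (0.412 CPM), so complex IV is not ranked against the other complexes there. Complex III was the lowest in Space-2, with -0.11 there and -0.03 in both Ground-1 and Space-3, and 6 of its 8 genes were lowest in Space-2. Of the subunit groups, complex II (4 genes) moved least, from -0.05 to 0.08.

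Single genes with more than the usual variation serve as examples of this pattern. Their ratios of highest to lowest library were 1.53 for Ndufc1, 1.75 for Ndufaf6 and 1.39 for Uqcrq. The median ratio of the 95 genes was 1.21. Ndufc1, a small accessory subunit of complex I, stood at 21.7, 21.8 and 33.1 CPM in Ground and at 32.1, 27.5 and 21.9 CPM in Space libraries. Ndufaf6, an assembly factor of complex I, stood at 6.55, 7.45 and 10.7 CPM and at 11.1, 6.34 and 6.68 CPM. Both were picked after their values were seen, for their large differences between libraries. Uqcrq, a small subunit of complex III, stood at 53.3, 53.5 and 66.8 CPM and at 65.1, 47.9 and 51.8 CPM. For all 3 genes Ground-3 and Space-1 were the highest of their groups. For Ndufc1, Space-2 (27.5 CPM) lay between Space-1 and Space-3. Genes outside the pattern included Cox8c, which was lowest in Ground-3 (3.33 CPM, other libraries 3.67 to 4.64 CPM), and Ndufs8, a core subunit with iron-sulfur centres, which was highest in Ground-1 (117 CPM) and lowest in Space-1 (107 CPM).

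**Figure D4:**
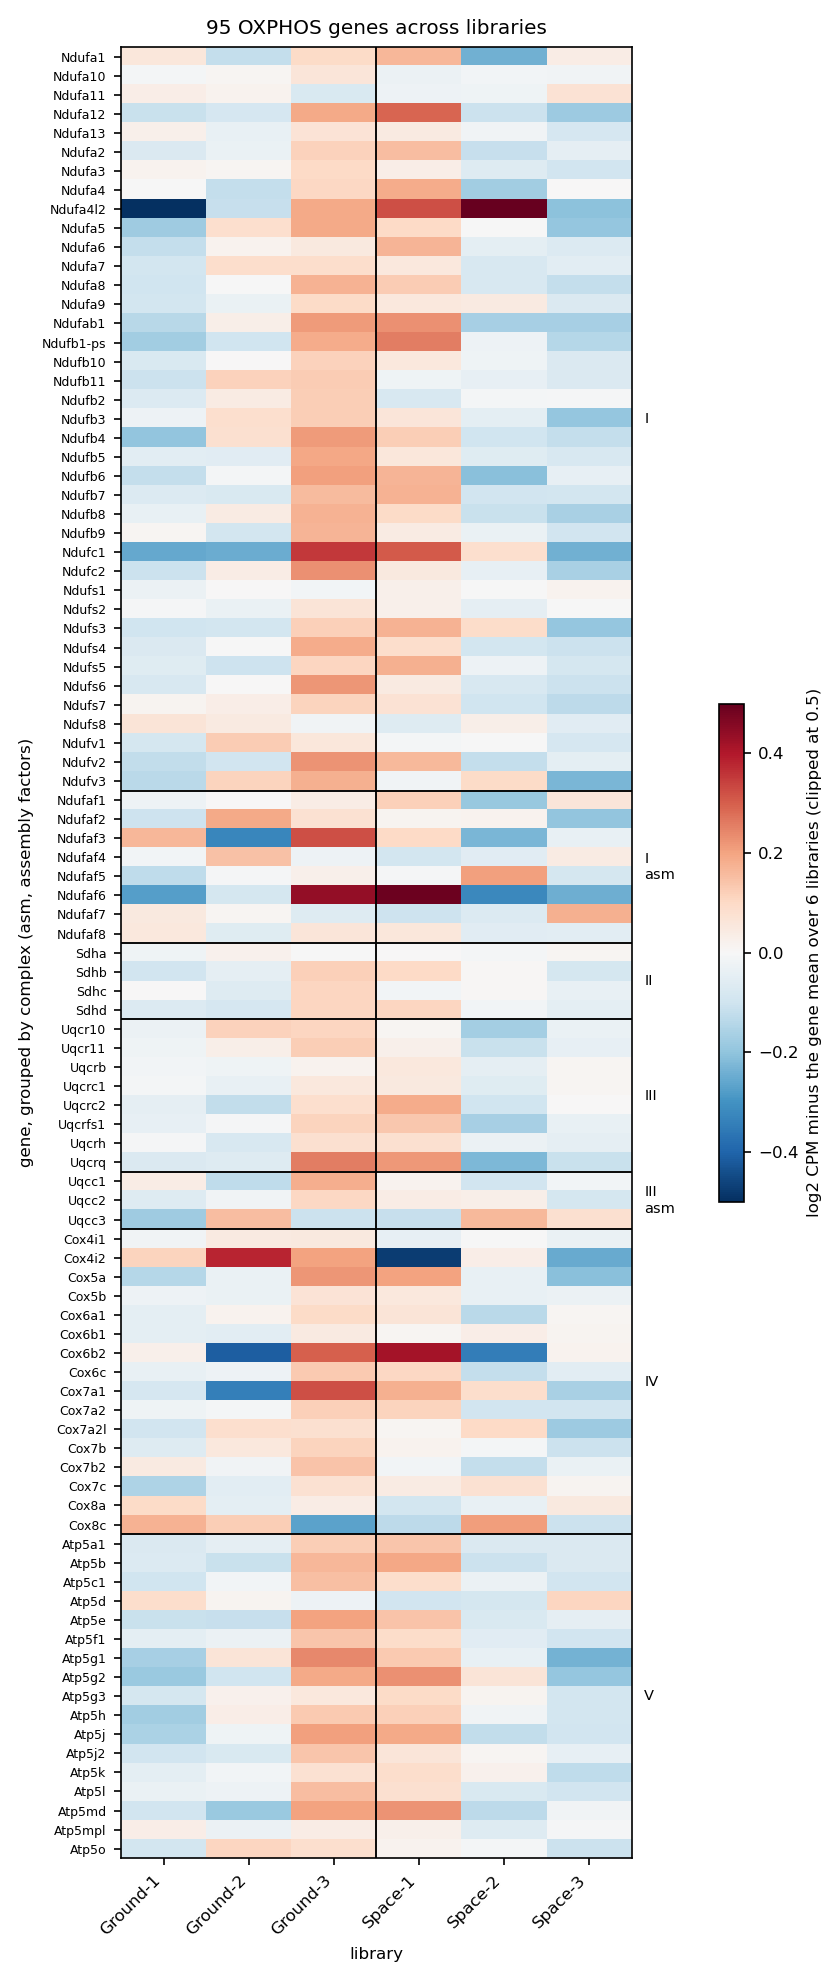
Log2 CPM of each of the 95 genes minus its mean over the 6 libraries (colour, clipped at 0.5), in rows grouped by complex, with Ground libraries left and Space libraries right of the line. Red runs down the columns Ground-3 and Space-1, which are the 2 highest libraries in 60 of 95 genes, and the columns do not divide by group.

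Total counts of Ground-3 and Space-1 (23218122 and 24110916) were close to those of Ground-1 and Space-3 (23399654 and 23994478), which had the lowest OXPHOS levels. The number of genes with a count was 20316 and 20264 in Ground-1 and Space-3 and 19528 to 19560 in the other 4 libraries. The summed feeder markers were lowest in Space-1 (mean deviation -0.70) but near their mean in Ground-3 (-0.02), and 0 of 16 had the pattern. The 16 germ cell markers had mean deviations from -0.02 to 0.01 in all libraries, and 4 of 16 had it. Other markers ran opposite to the OXPHOS genes. The 6 tested markers of macrophages and endothelium had mean deviations of -0.63 in Ground-3 and -0.79 in Space-1, against 0.59 in Ground-1 and 0.69 in Space-3, and 0 of 6 had the pattern. Among the germ cell markers Etv5, a transcription factor known to respond to GDNF and named here after its values were seen, stood at 259, 202 and 93.03 CPM in Ground and at 99.1, 195 and 262 CPM in Space libraries. Etv5 did not stand for its list, in which 8 of 16 markers were above their mean in Ground-3 and 7 of 16 in Space-1. The part of these differences in the pattern was not tested.

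Genes around the respiratory chain were partly alike. Of 16 genes of the citric acid cycle and pyruvate dehydrogenase, 13 (81.2%) were highest in Ground-3 and Space-1, against 23.5% of all tested genes. Their mean deviations there were 0.12 and 0.11. Of 15 tested regulators of mitochondrial biogenesis 7 were (46.7%), with 0.09 and 0.12. Of 45 tested assembly factors and partners outside the 95 genes 13 were (28.9%), near the share of all tested genes. Cyc1, the cytochrome c1 subunit of complex III, followed the pattern, with 174, 183 and 208 CPM in Ground and 209, 178 and 183 CPM in Space libraries (log2 fold change 0.01 ± 0.09 SE). Cycs did not, with 57.3 to 60.4 CPM over all 6 libraries. Of the factors whose motifs were searched, Yy1 and Sp1 had the pattern. Yy1 stood at 91.1, 85.9 and 102.9 CPM in Ground and at 102.8, 90.1 and 90.3 CPM in Space libraries. Sp1 stood at 166 to 188 CPM, highest in Space-1, but its Ground-3 (181.41 CPM) was barely above its Space-2 (181.39 CPM). Nrf1 stood at 70.8 to 86.3 CPM, also highest in Space-1, without the pattern. Gabpa, the DNA binding subunit of GABP, stood at 88.6 to 98.1 CPM, lowest in Ground-3, and Creb1, which binds the CRE, at 41.8 to 46.5 CPM, lowest in Space-1. The ratio of highest to lowest library was 1.11 to 1.22 for these 5, beside a median of 1.21 for the 95 genes. Ppargc1a, a coactivator of biogenesis, held 26 counts in all and was not tested.

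Against Ground GS cells, 0 genes of these lists passed an adjusted or unadjusted p of 0.05 in edgeR. Assembly factors and partners had 20 higher and 25 lower estimates. Their smallest p was that of Dmac1, an assembly factor of complex I, with 11.7, 12.2 and 12.1 CPM in Ground and 14.8, 13.3 and 13.9 CPM in Space libraries, log2 fold change 0.22 ± 0.11 (SE), unadjusted p = 0.0749 and adjusted p = 0.9999 in edgeR. The groups did not overlap in 5 of these 45 genes (11.1%, against 3.59% of all tested genes), higher in Space for Dmac1 and lower for Cox15, Coa4, Dmac2 and Tmem126b, which are named after their values were seen. Regulators had 10 higher and 5 lower estimates, with the smallest p for the coactivator Pprc1 (log2 fold change 0.10 ± 0.08 SE). The citric acid cycle had 7 higher and 9 lower, with the smallest p for Pdha1, a subunit of pyruvate dehydrogenase (log2 fold change 0.06 ± 0.05 SE).

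The subunits made from mitochondrial DNA followed another order of libraries than their nuclear partners. The 13 mitochondrially encoded messages summed to 29788, 122112 and 57968 CPM in Ground libraries 1 to 3 and to 24900, 72187 and 26965 CPM in Space libraries 1 to 3. All 13 were highest in Ground-2 and lowest in Space-1. Ground-2 and Space-2 held the most mitochondrial RNA, whereas the nuclear OXPHOS genes were highest in Ground-3 and Space-1, and Space-1 was thus high for the nuclear genes and lowest for the mitochondrial ones. The summed CPM of the 95 nuclear genes moved far less, from 8843 to 9934.

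The ratio of mitochondrially encoded to nuclear OXPHOS counts was 3.36, 13.4 and 5.84 in Ground and 2.55, 8.12 and 3.05 in Space libraries. The means were 7.54 ± 5.25 (SD, n = 3) and 4.57 ± 3.08 (SD, n = 3), and the 2-sided exact permutation p was 0.5 (adjusted 0.962). All 13 mitochondrially encoded genes had lower estimates in Space, with a median log2 fold change of -0.77 and a median SE of 0.59, and 0 had an unadjusted p under 0.05 in edgeR. The lowest p, 0.0663, was that of mt-Nd3, a complex I subunit that was counted at 0.206 to 1.17 CPM only. Because mitochondrially encoded RNA makes up 2.51% to 11.5% of a library, the share of the nuclear OXPHOS genes in all counts depends on it. That share was 0.921%, 0.856% and 0.976% in Ground and 0.982%, 0.878% and 0.922% in Space libraries, lowest in the libraries numbered 2, and its means of 0.918% ± 0.060 (SD, n = 3) and 0.927% ± 0.052 (SD, n = 3) gave an exact permutation p of 0.7 (adjusted 0.962).

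**Figure D5:**
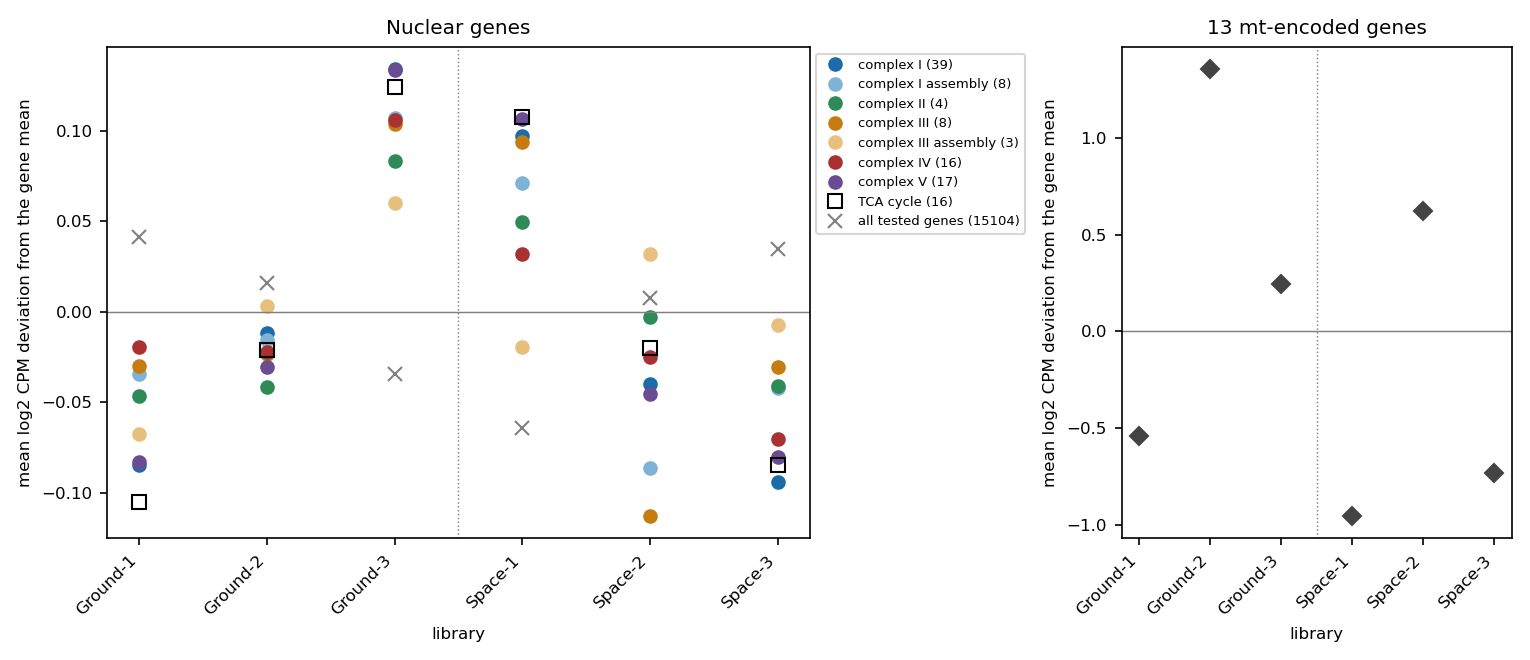
Mean deviation of log2 CPM from the gene mean in each library, left for the OXPHOS genes by complex (dots), the citric acid cycle (squares) and all tested genes (crosses), right for the 13 mitochondrially encoded genes on a wider axis. The OXPHOS groups other than the complex III assembly factors are above 0 in both Ground-3 and Space-1, and the mitochondrially encoded genes peak in Ground-2.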

How the data were processed

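RNA of GS cells was sequenced in 6 libraries, 3 titled Space and 3 titled Ground. The authors deposited raw read counts per gene, with nothing pooled. By the study's methods, cutadapt trimmed the reads and HISAT2 placed them on mm10 under GENCODE M21. The submitters' processing notes name bcl2fastq 2.20, cutadapt 4.1, HISAT2 2.2.1 and HTSeq 2.0.2. Library kit, sequencer and cutadapt version differ between the submitters' notes and the methods. Gene positions and exon lengths came from GENCODE M21 (GRCm38), which holds 32235 of the 32285 rows.

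Counts were scaled by TMM, filtered with filterByExpr (15104 genes left) and tested in edgeR 4.0.16 (R 4.3.3) by the quasi-likelihood F test (2-sided, no block), adjusted by Benjamini-Hochberg over all tested genes. A 95% interval used the SE, the size of the log2 fold change divided by the square root of F. CPM are relative to TMM-scaled library sizes. Deviations are log2 CPM (prior count 2) minus the mean of the gene over 6 libraries. Levels between genes are CPM per kb of the union of exons. Shares and sums were compared by exact permutation over libraries. The floor for a count of 0 is 3 counts per library and covers counting error only. Pseudogene copies were searched with blastn 2.17.0. The test was run on simulated counts first.

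Named genes were core subunits, paralogue sets, the 2 highest and 2 lowest genes per length in each complex, the 3 smallest p in each direction and the 3 largest ratios between libraries, with exceptions stated. Other lists are given by counts, their gene of smallest p, and Cyc1, Cycs and Cyct. The members and lists were chosen with earlier results of these data known. Alternatives were RLE and total-count scaling, other filters, DESeq2 1.42.0, limma-voom (limma 3.58.1), a replicate block, leaving out libraries, and other gene lengths.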

Additional observations from a re-analysis of the deposited data

How the results depend on the processing

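The count of OXPHOS genes past an adjusted p of 0.05 was 0 in all 16 settings tried, and 1 gene at most had an unadjusted p under 0.05 (without Space-1). The median log2 fold change stayed between -0.08 and 0.03, above 0 with total counts (0.0048) and without Ground-3 (0.03). The count of genes with groups apart was 2 and became 3 with RLE scaling (3.53% of all genes there), 3 without the mitochondrially encoded genes (3.57%), 1 with total counts (3.73%), 1 with a minimum of 10 counts (4.32%) and 12 without both libraries numbered 2 (14.9%). It ran from 6 to 18 without a single library, since fewer libraries separate more easily (8.28% to 12.7% of all genes). The range of levels per length was 801-fold with the longest and 753-fold with the principal transcript, the latter added after the data were seen, as were the counts for Ground-3 and Space-1 (56 to 61 of 95 under other scalings). The log2 fold change of Atp5a1 changed sign with total counts (0.031) and without both libraries numbered 2 (0.010). Without a single library it ran from -0.078 to 0.065, that of Atp5b from -0.090 to 0.108, of Cyc1 from -0.064 to 0.095 and of Ndufaf5 from -0.011 to 0.139. The cause was not tested.

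The numbers in the titles were not shown to pair the libraries. Over all genes, libraries of the same number correlated at -0.535, 0.332 and -0.606 once each group mean was subtracted. Ground-2 and Space-2 correlated best with each other. The other libraries correlated best across numbers (Ground-3 and Space-1 reached 0.67, and Ground-1 and Space-3 0.642). With the replicate block, 0 genes passed, 63 of 15104 had an unadjusted p under 0.05 against 92 without it, and the OXPHOS median was -0.03. No fit paired Ground-3 with Space-1 or Ground-1 with Space-3, since these pairs were seen only in the values. The intervals and exact tests given are without pairs. With 3 libraries a group, changes within the intervals given were not detectable at this depth and replication.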
